A study of Mus musculus with 24 samples.

Results

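The IL-12 family cytokines, IL-10 and their receptor chains were followed as 10 genes, chosen by symbol from the 54658 symbols of each count table: the ligand subunits Il12a, Il12b, Il23a, Il27 and Ebi3, the IL-12 and IL-23 receptor chains Il12rb1 and Il12rb2, and Il10 with its receptor chains Il10ra and Il10rb. All 10 symbols were present in both tables. Their levels were described in 3 sets of libraries, and β-NMN was compared with vehicle in each. β-NMN (nicotinamide mononucleotide, a precursor of NAD+) was given intraperitoneally at 185 mg/kg/day, and vehicle mice received 0.9% NaCl. All mice were male C57BL/6 of 7 to 12 weeks. Peritoneal cells came from 6 vehicle-treated and 6 β-NMN-treated mice injected with 1 mL of thioglycollate (TGC), a sterile irritant that recruits leukocytes into the peritoneum. These mice were dosed once daily for 3 days, with the last dose 24 h before the cells were taken. The lavage cells, a macrophage-rich mixture that was not sorted, were plated at 0.5 M per well and stimulated for 6 h with E. coli, so every peritoneal library of both groups is a stimulated one. Hearts and lungs came from 6 mice, 3 given vehicle and 3 given β-NMN, with polymicrobial sepsis after cecal ligation and puncture (CLP), both organs from each mouse. The CLP mice had a single dose, given right after surgery, and their organs were taken 24 h later. No unstimulated cells and no sham-operated mice were analysed here, so a change with β-NMN is a change within stimulated cells or septic organs.

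Each IL-12 family cytokine is a pair of subunits encoded by separate genes. Il12a (p35) and Il12b (p40) form IL-12, which drives NK and T cells to make interferon-γ; Il23a (p19) with the same p40 forms IL-23, which sustains IL-17-producing lymphocytes; Il27 (p28) with Ebi3 forms IL-27, and p35 can also pair with Ebi3. IL-12 signals through Il12rb1 and Il12rb2, and IL-23 through Il12rb1 and Il23r. Macrophages and dendritic cells that meet bacteria transcribe these subunits within hours, together with Il10, whose product acts through Il10ra and Il10rb to restrain the same cells.

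Positions were read from GENCODE M21 (GRCm38, the assembly also named mm10). Il12a lies on chromosome 3 (68690644 to 68698547, plus strand), Il12b on chromosome 11 (44400063 to 44414033, plus), Il23a on chromosome 10 (128296139 to 128298752, minus), Il27 on chromosome 7 (126589010 to 126594941, minus) and Ebi3 on chromosome 17 (55952640 to 55957022, plus). The receptor chains Il12rb1 and Il12rb2 lie on chromosomes 8 (70808449 to 70821424, plus) and 6 (67291318 to 67376188, minus). Il10, Il10ra and Il10rb lie on chromosomes 1 (131019845 to 131024974, plus), 9 (45253837 to 45269149, minus) and 16 (91406164 to 91425834, plus). The subunits of one cytokine therefore stand on different chromosomes, and the partners do not share a promoter.

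The promoters of Il12b, Ebi3 and Il12a are shown because these ligand subunits fell together in the peritoneal cells and were in the promoter set at hand. That set held no promoter of Il23a, the ligand subunit that fell furthest. Each is the 250 bases before a RefSeq start on GRCm38.p6, plus strand, 5′ to 3′, at chr11:44399813-44400062, chr17:55952373-55952622 and, for the first of the Il12a starts, chr3:68690394-68690643; capitals mark a match to the NF-κB consensus.
Il12b: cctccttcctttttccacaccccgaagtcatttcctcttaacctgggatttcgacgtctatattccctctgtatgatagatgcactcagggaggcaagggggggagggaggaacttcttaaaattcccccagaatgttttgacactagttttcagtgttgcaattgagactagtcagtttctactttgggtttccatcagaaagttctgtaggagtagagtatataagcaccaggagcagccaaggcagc
Ebi3: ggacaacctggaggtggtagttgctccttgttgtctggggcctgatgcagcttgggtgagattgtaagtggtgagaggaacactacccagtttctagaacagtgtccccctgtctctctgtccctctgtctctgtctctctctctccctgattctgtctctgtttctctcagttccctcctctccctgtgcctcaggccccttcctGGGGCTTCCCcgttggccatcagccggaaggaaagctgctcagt
Il12a: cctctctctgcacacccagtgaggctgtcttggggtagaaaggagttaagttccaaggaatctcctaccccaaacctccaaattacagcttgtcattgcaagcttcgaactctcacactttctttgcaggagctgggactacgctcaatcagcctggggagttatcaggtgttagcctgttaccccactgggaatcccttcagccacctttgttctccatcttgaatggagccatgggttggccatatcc
5 motifs were searched on both strands: the NF-κB consensus, AP-1 (TGANTCA), the core of the interferon-stimulated response element (GAAA and GAAA with 2 bases between them), C/EBP (TTGCNNAA) and CRE (TGACGTCA). The single match in these 3 windows was the NF-κB consensus of Ebi3, GGGGCTTCCC, 44 to 35 bases upstream of the start. Of 32851 mouse promoter windows of the same length, 7.25% held the NF-κB consensus, 6.75% AP-1, 2.98% the interferon element, 9.56% C/EBP and 1.55% CRE. A match is a description of letters, and a window without one says only that these letters were not in it. A window was also searched for the second Il12a start and for Il12rb2, with no match to any of the 5 motifs.

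Total counts ranged from 31126823 to 112456050 in the 12 peritoneal libraries, from 27319513 to 68523239 in the 6 hearts and from 8915366 to 28356786 in the 6 lungs. A count of 3 reads, taken as the floor below which a level was not read, corresponded to 0.0268 to 0.102 CPM (counts scaled to the library size) in the peritoneal libraries, to 0.0461 to 0.112 CPM in hearts and to 0.101 to 0.433 CPM in lungs; floors cover counting error only. The vehicle mouse of replicate 2 stood apart in both organs. The SD of its log2 CPM from the mean of the other libraries was 0.99 in heart, against 0.39 to 0.58 for the others, and 1.57 in lung, against 0.45 to 0.60. Most log2 fold changes and differences in the organs are therefore also given without it. Replicate number 3 stands on 2 β-NMN hearts in the labels; one of these mice has its lung numbered 2, and its heart was counted as replicate 2. The defining markers of each tissue were at the levels its label calls for: the summed cardiomyocyte markers reached 31842 to 49292 CPM in hearts, the summed lung epithelium markers 58154 to 103248 CPM in lungs, and the 7 macrophage markers summed to 5620 to 12138 CPM in the peritoneal libraries. The macrophage sum, most of it Lyz2, was 1342 to 5477 CPM in lungs, so it sets the peritoneal libraries only narrowly apart from them.

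In the stimulated peritoneal cells, most of the genes were lower with β-NMN and Il27 was higher. Of the 10 genes, 7 were called lower (Il12a, Il12b, Il23a, Ebi3, Il12rb2, Il10 and Il10rb), 1 was called higher (Il27), and Il12rb1 and Il10ra did not pass the test. The largest fall was that of Il23a, 26.3-fold, and the falls of Il12b, Il12rb2, Ebi3, Il12a and Il10 lay between 4.35-fold and 2.39-fold. A gene was called when its adjusted p was below 0.05 in edgeR's quasi-likelihood F-test with Benjamini-Hochberg adjustment over all 14985 genes tested. β-NMN moved a large share of the transcriptome in these cells: 51.6% of all genes tested were called, 27.9% lower and 23.7% higher, and the median log2 fold change of all genes was -0.02, against -1.41 for the 10 genes. The groups did not overlap for 7 of the 10 genes, against 26.6% of all genes tested. In the same 7, the exact permutation test (two-sided) gave 0.00216, the smallest p that 6 libraries against 6 allow. That value follows from the lack of overlap and adds nothing to it.

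**Figure D1:**
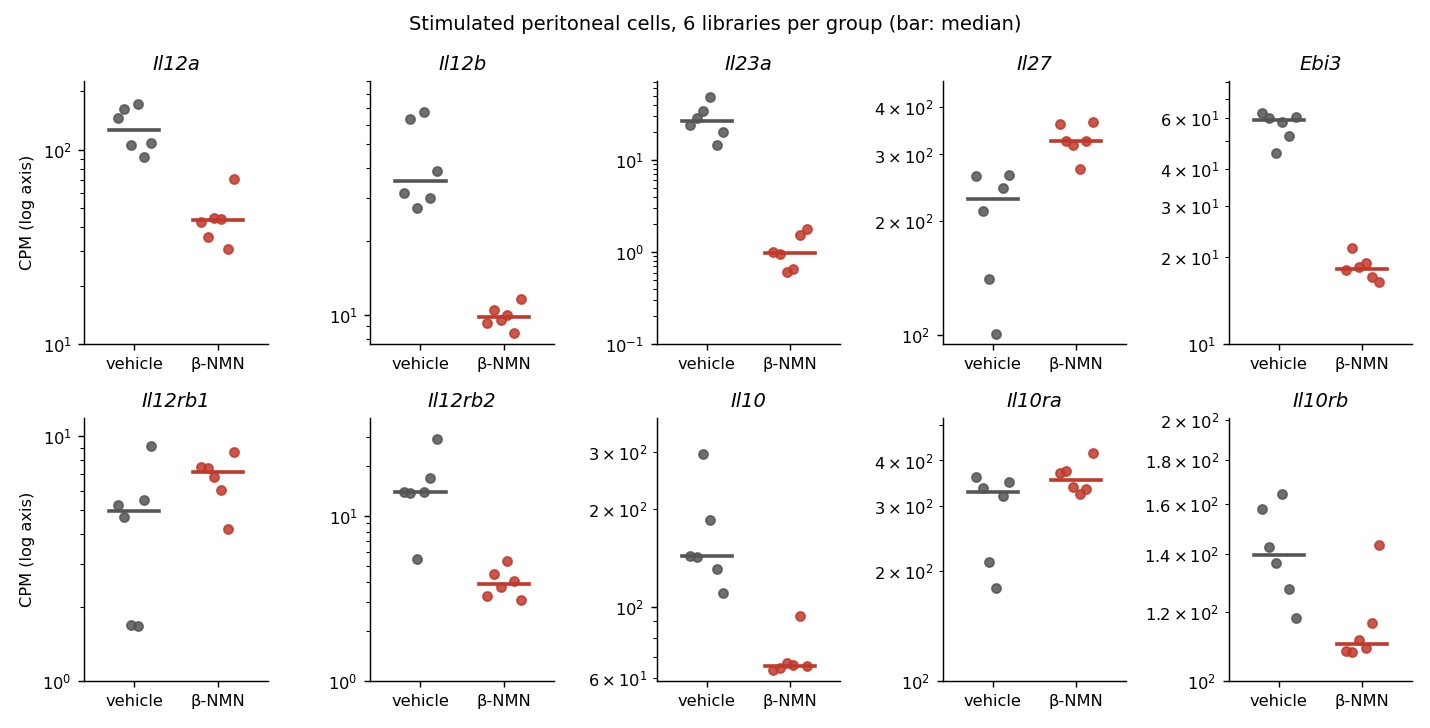
CPM of the 10 genes in each stimulated peritoneal library (log axes, 1 point per mouse, 6 vehicle in grey and 6 β-NMN in red, bar at the median). The β-NMN libraries lie below all vehicle libraries for Il12a, Il12b, Il23a, Ebi3, Il12rb2 and Il10 and above them for Il27, while the groups overlap for Il12rb1, Il10ra and Il10rb.

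Among the ligand subunits, Il12b, which encodes the p40 chain shared by IL-12 and IL-23, ranged from 27.5 to 67.9 CPM in vehicle libraries (median 35.2, n = 6) and from 8.44 to 11.7 CPM in β-NMN libraries (median 9.81, n = 6). The groups did not overlap, and 2 vehicle libraries, replicates 2 and 4, stood above the other vehicle libraries at 63.0 and 67.9 CPM, whereas the β-NMN libraries were close together. On the log2 scale Il12b fell by 2.12 ± 0.22 (SE; adjusted p = 2.2e-06, edgeR quasi-likelihood). Il12a, the p35 partner of IL-12, ranged from 92.1 to 173 CPM with vehicle (median 127) and from 30.9 to 70.5 CPM with β-NMN (median 43.3). Its highest β-NMN value, that of replicate 6, was still below the lowest vehicle value, and the fall was 1.55 ± 0.20 on the log2 scale (adjusted p = 1.7e-05, edgeR).

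Il23a, the p19 chain of IL-23, was the gene with the widest gap. It ranged from 14.5 to 48.3 CPM in vehicle libraries (median 26.4) and from 0.611 to 1.77 CPM in β-NMN libraries (median 0.977), where it rested on 23 to 92 reads per library. Every β-NMN library was therefore far below every vehicle library while remaining above the floor of 3 reads. The log2 fold change was -4.71 ± 0.33 (SE; adjusted p = 6.6e-08, edgeR).

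The partners in IL-27 moved in opposite directions. Ebi3 ranged from 45.4 to 62.7 CPM with vehicle (median 59.0) and from 16.4 to 21.4 CPM with β-NMN (median 18.2), a fall of 1.62 ± 0.10 on the log2 scale (adjusted p = 1.9e-08, edgeR), and it was the subunit with the least spread within groups. Il27, the p28 chain, ranged from 101 to 266 CPM with vehicle (median 229) and from 275 to 367 CPM with β-NMN (median 326). Its groups did not overlap either, but vehicle replicates 3 and 4, at 140 and 101 CPM, lay well below the other 4 vehicle libraries, the highest of which, at 266 CPM, came close to the lowest β-NMN library. The rise of Il27 was 0.69 ± 0.20 on the log2 scale (1.61-fold; adjusted p = 0.0093, edgeR). The sources used here do not say whether counting was strand-specific. Exons of Ebi3 share 23.4% of their length with the antisense gene Gm16712, which ranged from 8.75 to 15.0 CPM with vehicle and from 1.98 to 6.51 CPM with β-NMN, and exons of Il27 share 10.1% with the antisense gene Apobr, which ranged from 79.0 to 113 CPM and from 106 to 131 CPM; without strand, reads of such partners cannot be told apart.

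Since each cytokine needs its subunits in pairs, the ratio between subunits was also compared within each library. The ratio of Il23a to Il12a, the chains that compete for p40, had a median of 0.182 with vehicle (0.157 to 0.324) and of 0.0250 with β-NMN (0.0143 to 0.0505). The groups did not overlap, and the mean log2 ratio was lower by 3.11 with β-NMN (-2.27 ± 0.43 SD against -5.38 ± 0.66 SD, n = 6 in either group; exact permutation test, two-sided, p = 0.00216, 0.00433 after Benjamini-Hochberg adjustment over the 4 ratios tested). The ratio of Il27 to Ebi3 had a median of 3.85 with vehicle (1.73 to 4.71) and of 18.2 with β-NMN (14.4 to 22.3), again with no overlap. Its mean log2 value was 2.38 higher with β-NMN (1.78 ± 0.53 SD against 4.16 ± 0.24 SD, n = 6 each; exact permutation p = 0.00216, adjusted 0.00433). These are ratios of CPM, not per length, so they compare groups and not the amounts of the chains.

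The ratio of Il10 to Il12b set the anti-inflammatory cytokine against p40. It had a median of 3.50 with vehicle (2.25 to 10.7) and of 6.68 with β-NMN (5.59 to 11.1), and the groups overlapped through vehicle replicate 3, the library with the highest Il10. The difference of the mean log2 ratio was 0.84 (exact two-sided permutation p = 0.0541, adjusted 0.0722, n = 6 each) and did not pass the test. Without vehicle replicate 3, it was 1.13 with an exact permutation p of 0.00433, so this 1 library decides the call.

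**Figure D2:**
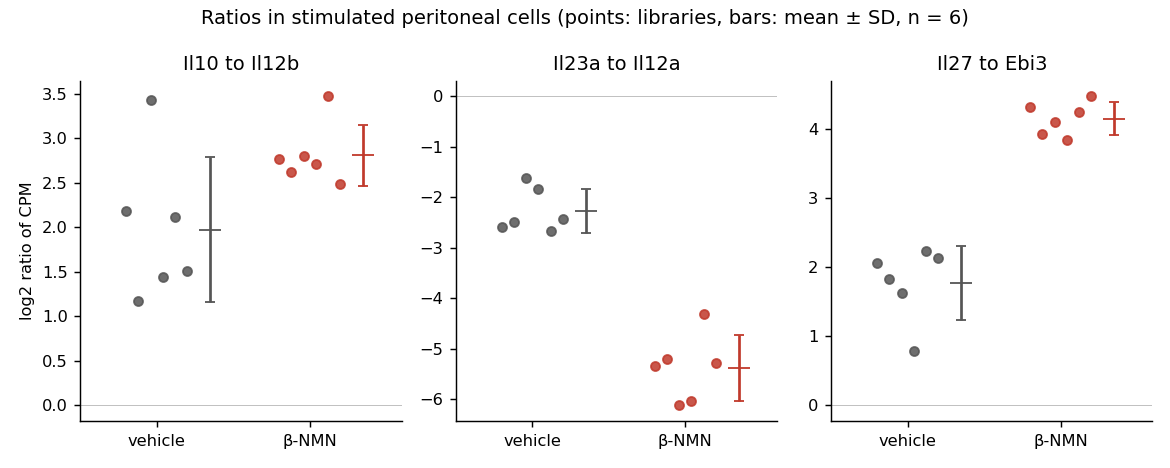
Log2 ratio of CPM in each peritoneal library (points) with the mean ± SD beside it (n = 6 per group, vehicle grey, β-NMN red). Il23a to Il12a is lower and Il27 to Ebi3 higher in every β-NMN library, whereas vehicle replicate 3 places the Il10 to Il12b ratio of the vehicle group within the β-NMN range.

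The chains of the IL-12 receptor did not move together. Il12rb2, the chain that NK cells and type 1 T cells use to respond to IL-12, ranged from 5.45 to 29.3 CPM with vehicle (median 13.9) and from 3.09 to 5.36 CPM with β-NMN (median 3.85). The groups did not overlap, although vehicle replicate 3 was next to the highest β-NMN library, and the fall was 1.97 ± 0.29 on the log2 scale (adjusted p = 5.9e-05, edgeR). Il12rb1, shared by the IL-12 and IL-23 receptors, ranged from 1.67 to 9.12 CPM with vehicle (median 4.95) and from 4.18 to 8.61 CPM with β-NMN (median 7.13). Its groups overlapped, with vehicle replicates 3 and 4 at 1.70 and 1.67 CPM and replicate 6 the highest of all 12. Its log2 fold change of 0.54 ± 0.34 did not pass the test (adjusted p = 0.21, edgeR); without vehicle replicate 6 it was 0.85, with an adjusted p of 0.034.

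Il12rb2 fell in cells in which lymphocyte transcripts were also lower. Of the 5 NK cell markers, 4 were called lower (Ncr1, Klrb1c, Gzma and Klre1) and Klrk1 was not, and the sum of the list ranged from 69.1 to 291 CPM with vehicle and from 72.5 to 89.4 CPM with β-NMN; no marker was at 0. All 6 T cell markers were called lower, and their sum ranged from 4.66 to 23.5 CPM with vehicle and from 2.16 to 4.96 CPM with β-NMN. Among all genes tested, 27.9% were called lower. In bulk libraries, fewer cells of a type and less RNA per cell cannot be told apart. The ratio of Il12rb2 to Ncr1, an NK cell receptor, was 0.589 to 0.831 with vehicle (median 0.658) and 0.512 to 0.758 with β-NMN (median 0.598); this ratio was chosen after its values were seen and is given without a test. The groups overlapped in it. Divided by the sum of the 5 NK cell markers, which Klrk1 and Gzma dominate, Il12rb2 was 0.0697 to 0.138 with vehicle and 0.0383 to 0.0600 with β-NMN, without overlap. Exons of Il12rb2 share 40.0% of their length with the antisense gene Serbp1, which stood at 192 to 236 CPM in all 12 peritoneal libraries. Serbp1 was at 295 to 340 CPM in the hearts, where Il12rb2 was at 0.0372 to 0.109 CPM, on 1 to 7 reads per heart.

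**Figure D3:**
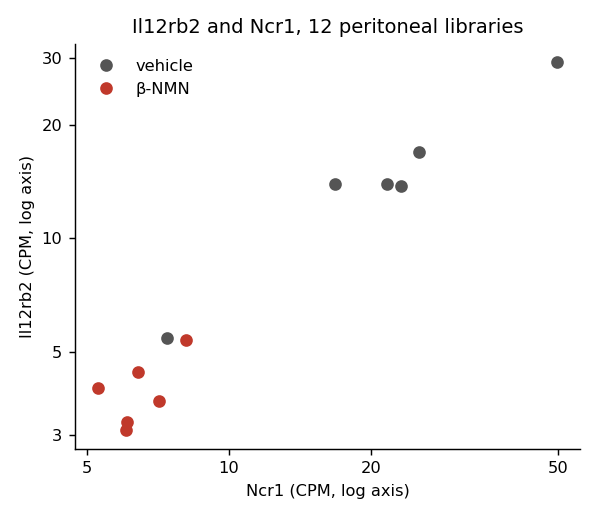
Il12rb2 against the NK cell receptor gene Ncr1 in the 12 peritoneal libraries (CPM, log axes, 1 point per mouse, vehicle grey, β-NMN red). The β-NMN libraries lie at 5.28 to 8.11 CPM of Ncr1 and 3.09 to 5.36 CPM of Il12rb2, next to vehicle replicate 3, and the other vehicle libraries are higher in both genes.

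Il10 fell with β-NMN as well. It ranged from 110 to 295 CPM with vehicle (median 143) and from 63.6 to 93.7 CPM with β-NMN (median 65.6). The groups did not overlap; vehicle replicate 3 was the highest library at 295 CPM, and 5 of the 6 β-NMN libraries lay between 63.6 and 67.0 CPM. The fall was 1.26 ± 0.20 on the log2 scale (adjusted p = 0.00013, edgeR), and 0.98 without vehicle replicate 3.

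The receptor chains of IL-10 had smaller log2 fold changes than Il10, in opposite directions. Il10ra, the ligand-binding chain, ranged from 180 to 360 CPM with vehicle (median 328) and from 324 to 418 CPM with β-NMN (median 353), with vehicle replicates 3 and 4 at 211 and 180 CPM and the other vehicle libraries within the β-NMN range or near it. Its log2 fold change of 0.30 ± 0.16 did not pass the test (adjusted p = 0.13, edgeR). Il10rb, a chain shared with other receptors of the IL-10 family, ranged from 118 to 164 CPM with vehicle (median 140) and from 108 to 144 CPM with β-NMN (median 110). The groups overlapped, since β-NMN replicate 6 at 144 CPM stood among the vehicle libraries. Il10rb fell by 0.28 ± 0.10 on the log2 scale (adjusted p = 0.028, edgeR), but the call was lost in 8 of the 12 fits that each left out 1 library, with adjusted p of up to 0.098, and 0.17 without the low-count filter.

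Vehicle replicates 3 and 4 had the lowest vehicle values of Il27, Il12rb1 and Il10ra and the highest of Il10 and Il23a. With each library left out in turn, 7 to 9 of the 10 genes were called, beside 7132 to 8049 of all genes. Il12a, Il12b, Il23a, Il27, Ebi3, Il12rb2 and Il10 passed in all 12 of these fits.

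Levels can be compared between genes only per length, as CPM per kilobase of exon. In vehicle cells the median order was Il27 (224), Il10 (109), Il10ra (93.9), Il12a (74.8), Ebi3 (51.2), Il10rb (36.7), Il12b (17.9), Il23a (11.8), Il12rb2 (3.67) and Il12rb1 (1.21 CPM per kb), and every neighbour overlapped the next in its range over the 6 libraries. In β-NMN cells Il27 still led at 319 CPM per kb, with no overlap with Il10ra at 101, and Il10 at 50.1 was below Il10ra without overlap. Il23a took the last place at 0.435 CPM per kb, below Il12rb2 at 1.01 and Il12rb1 at 1.74, which overlapped each other. The p35 chain stood above p40 per length in both groups, 74.8 against 17.9 CPM per kb with vehicle and 25.5 against 4.99 with β-NMN.

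The genes whose log2 CPM over the 12 peritoneal libraries was most like that of Il12b, among 6829 genes whose mean log2 CPM reached 3, were Arl5b, Cd80, Stk10, Phtf2 and Sltm, with Pearson r from 0.975 to 0.979. After the group means were subtracted, r was 0.81 to 0.86. Cd80 encodes a costimulatory ligand for T cells. The genes most like Il10 were Med24, Sfr1, Odc1, Ptgir and Cd14, with r from 0.97 to 0.98, and 0.86 to 0.94 after subtraction; Odc1 is the ornithine decarboxylase of polyamine synthesis, Ptgir the prostacyclin receptor and Cd14 a coreceptor for bacterial lipopolysaccharide. These correlations are descriptions over 12 libraries that share groups and depth.

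In the peritoneal lists that follow, counts stand against 27.9% of all genes tested called lower and 23.7% called higher. Other receptor chains of the family were measured beside the 10 genes. Of 3, 1 was called higher: Il6st, the gp130 chain through which IL-27 signals, ranged from 70.8 to 94.1 CPM with vehicle and from 120 to 150 CPM with β-NMN (log2 fold change 0.61 ± 0.09, adjusted p = 5.1e-05, edgeR). Il27ra, its partner chain, had a log2 fold change of 0.12 ± 0.15 (adjusted p = 0.56) and Il23r of -0.42 ± 0.36 (adjusted p = 0.35) in the same test, the latter at under 1 CPM in every library.

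Of 8 JAK, STAT and SOCS genes of these pathways, 4 were called lower, 1 higher and 3 neither, with a median log2 fold change of -0.41. Since 51.6% of all genes tested were called, this count alone does not set the list apart. Stat4, the transcription factor through which IL-12 acts, ranged from 12.9 to 23.3 CPM with vehicle and from 2.51 to 4.98 CPM with β-NMN, without overlap, and fell by 2.15 ± 0.19 (log2; adjusted p = 6.7e-07, edgeR). Stat3, which carries the IL-10 and IL-23 signals, fell by 0.46 ± 0.11 (adjusted p = 0.0020) and Socs3, a STAT3-induced inhibitor, by 0.98 ± 0.16 (adjusted p = 0.00018) in the same test. Stat4 is also a gene of lymphocytes, whose markers were lower in these libraries as given above.

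Of 15 transcription factors known to act on Il12b, Il23a, Il27 or Il10, 8 were called lower and 4 higher, with a median log2 fold change of -0.40. Bcl3, an atypical IκB protein, fell from a median of 242 CPM to 130 CPM (log2 fold change -0.91 ± 0.07, adjusted p = 3.1e-07, edgeR). Crem, a cyclic AMP-responsive regulator, fell by 1.49 ± 0.18 (adjusted p = 7.8e-06) and Cebpb, an activator of inflammatory genes, by 1.40 ± 0.18 (adjusted p = 2.0e-05) on the log2 scale, both without overlap between groups. The 4 called higher were Batf3 (log2 fold change 1.69 ± 0.26), Irf8 (0.78 ± 0.26), Irf5 and Atf3. Among all genes tested, 27.9% were called lower and 23.7% higher, so falls beside rises are not particular to this list.

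Of 8 genes known to be induced by IL-10 in macrophages, 7 were called lower and 1 higher, with a median log2 fold change of -0.56. The shares of all genes tested were 27.9% lower and 23.7% higher. Bcl3 and Socs3, given above, belong to this list as well. Socs3 is induced through STAT3, which carries the IL-23 signal too, so the list is not a measure of IL-10 signalling. Etv3, a transcriptional repressor, went the other way: it ranged from 130 to 219 CPM with vehicle and from 263 to 332 CPM with β-NMN (log2 fold change 0.76 ± 0.13, adjusted p = 0.00019, edgeR).

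Of 12 genes of the type 1 response, 9 were called lower, none higher, and the median log2 fold change was -1.47. For all genes tested the shares were 27.9% lower and 23.7% higher. The list held receptor chains and the cytokine Il18 too, so it is not a measure of IL-12 signalling. Tbx21, the T-bet factor of type 1 lymphocytes, ranged from 14.3 to 50.4 CPM with vehicle and from 3.51 to 7.35 CPM with β-NMN and fell by 2.62 ± 0.26 (log2; adjusted p = 1.8e-06, edgeR). Ifngr1, a chain of the interferon-γ receptor that macrophages carry, ranged from 65.5 to 82.8 CPM and from 24.9 to 33.1 CPM, and fell by 1.42 ± 0.09 (log2; adjusted p = 3.2e-08, edgeR). The 3 genes that did not pass were Il18, Cxcl9 and Cxcl10. Lymphocyte markers moved the same way: 6 of 6 T cell markers were called lower (median log2 fold change -1.49) and 4 of 5 NK cell markers (median -1.89). Their part in the fall of the type 1 genes was not tested.

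Of 8 genes of the type 17 response, 5 were called lower, none higher, and the median log2 fold change was -1.26. By comparison, 27.9% of all genes tested were called lower. The list held the receptor chains Il23r, Il17ra and Il17rc too, so it is not a measure of IL-23 signalling. Il17a, the cytokine that names the response, ranged from 2.51 to 8.85 CPM with vehicle and from 0.264 to 1.02 CPM with β-NMN (log2 fold change -3.48 ± 0.38, adjusted p = 4.1e-06, edgeR). Il22 fell by 2.09 ± 0.33 (adjusted p = 0.00011) and Il17ra, the receptor chain present on most cells, by 0.56 ± 0.09 (adjusted p = 0.00011) in the same test. Il17a and Il22 are transcripts of lymphocytes, and the T cell markers, 6 of 6 called lower with a median of -1.49, moved the same way; their part in this fall was not tested. Of 9 other genes of the IL-10 family, 4 had enough reads to be tested and all 4 were called lower. Ifnlr1, a receptor chain for interferon-λ that pairs with Il10rb, ranged from 3.85 to 8.20 CPM with vehicle and from 0.0465 to 1.17 CPM with β-NMN. With β-NMN it rested on 2 to 46 reads per library, so its lowest value lay below the floor of 3 reads. Its log2 fold change was -4.23 ± 0.49 (adjusted p = 6.4e-06, edgeR). Il20rb fell by 1.21 ± 0.30 (adjusted p = 0.0033, edgeR) and Il22 belongs to this list too.

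Some markers of the cells that make these cytokines moved with the groups. Of 7 macrophage markers, 3 were called higher (Cd68, Lyz2 and Mertk) and none lower. Adgre1, Csf1r, Fcgr1 and Itgam were not called. The sum of the 7, most of it Lyz2, ranged from 5620 to 8547 CPM with vehicle and from 10570 to 12138 CPM with β-NMN. Of 7 dendritic cell markers, 4 were called lower (Flt3, Zbtb46, Xcr1 and Ccr7), 2 higher (Cd209a and Itgax), and Clec9a was not called. Their sum ranged from 202 to 251 CPM with vehicle and from 77.8 to 145 CPM with β-NMN. Most of the vehicle sum was Ccr7, with a median of 153 CPM against 26.7 CPM with β-NMN, so the sum mainly follows that gene. Of 5 neutrophil markers tested, 4 were called lower (Ly6g, Csf3r, S100a8 and S100a9) and 1 was not called. The sum of the 7, most of it Csf3r, ranged from 472 to 972 CPM with vehicle and from 297 to 453 CPM with β-NMN. Csf3r overlapped between groups, with medians of 562 and 370 CPM. The other markers called lower did not overlap. Their medians with vehicle and β-NMN were 77.2 and 2.09 CPM for S100a8, 73.2 and 0.950 CPM for S100a9, and 1.12 and 0.0226 CPM for Ly6g. Ly6g rested on 0 to 6 reads per β-NMN library. Of the 6 markers of resident peritoneal macrophages, 3 were called higher and 3 lower, and 2 of 4 B cell markers were called lower. Of all genes tested, 51.6% were called, 27.9% lower and 23.7% higher. No marker of these lists was at 0 in all 12 libraries, and the part of these shifts in the changes of the 10 genes was not tested.

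In the septic hearts, few of the genes were transcribed at a level that could be tested. Il12b had 0 reads in each of the 6 hearts, which allows a level of up to 0.0461 to 0.112 CPM. Il12a (1 to 8 reads per heart), Il23a (0 to 13), Il27 (2 to 8), Il12rb1 (0 to 7) and Il12rb2 (1 to 7) were at or near the floor and were not tested. Only Ebi3, Il10, Il10ra and Il10rb passed the filter on low counts.

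None of these 4 was called between β-NMN and vehicle hearts, where 0% of the 16245 genes tested were called by edgeR, 1837 had an unadjusted p below 0.05, and DESeq2 called 283 genes, none of them among the 10. Il10rb was at 35.7, 26.3 and 45.9 CPM in vehicle hearts and at 51.8, 50.7 and 43.7 CPM in β-NMN hearts, so the groups overlapped (log2 fold change 0.44 ± 0.21, adjusted p = 0.44, edgeR). Il10ra was at 5.29, 5.08 and 4.02 CPM with vehicle and at 4.58, 4.79 and 3.30 CPM with β-NMN (log2 fold change -0.19 ± 0.22, adjusted p = 0.68, edgeR). Both were thus read in every heart, and neither difference passed the test.

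Ebi3 was at 0.845, 0.621 and 1.28 CPM in vehicle hearts and at 0.745, 1.70 and 0.837 CPM in β-NMN hearts (log2 fold change 0.28 ± 0.44, adjusted p = 0.76, edgeR). Il10 rested on 2, 20 and 4 reads in vehicle hearts and 9, 15 and 3 reads in β-NMN hearts, and its direction changed with the library left out. Without vehicle replicate 2 the log2 fold changes were 0.07 for Ebi3, 1.62 for Il10, -0.03 for Il10ra and 0.25 for Il10rb, and none was called. With 3 mice in each group, the smallest p of an exact permutation test is 0.1.

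The septic lungs held more of the family. Of the 10 genes, 7 passed the filter, and Il12b (0 to 5 reads per lung), Il23a (1 to 16) and Il12rb2 (0 to 13) did not. None of the 7 was called, as 0% of the 17008 genes tested were called by edgeR, 301 had an unadjusted p below 0.05, and DESeq2 called 9 genes, none of them among the 10. Il12rb1 had the lowest p: it was at 0.742, 1.73 and 0.621 CPM in vehicle lungs and at 0.365, 0.387 and 0.293 CPM in β-NMN lungs. The groups did not overlap, as for 8.21% of all genes tested, but the values rested on 6 to 22 reads per lung and the log2 fold change of -1.47 ± 0.57 did not pass the test (p = 0.036 before and 0.97 after adjustment, edgeR; exact permutation p = 0.1). Without vehicle replicate 2, the lung with the highest Il12rb1 and the fewest reads, it was -0.97.

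Of the ligand subunits in lung, Ebi3 was at 2.63, 2.02 and 4.39 CPM with vehicle and at 2.31, 2.20 and 2.90 CPM with β-NMN (log2 fold change -0.30 ± 0.42, adjusted p = 0.97, edgeR). Il27 was at 0.776, 1.30 and 0.663 CPM with vehicle and at 0.853, 0.348 and 0.587 CPM with β-NMN, a log2 fold change of -0.57 ± 0.54 (adjusted p = 0.97, edgeR). Il12a rested on 0 to 28 reads per lung, with a log2 fold change of 1.10 ± 0.81 (adjusted p = 0.97, edgeR). The groups overlapped for each of these subunits. The ratio of Il27 to Ebi3 did not differ beyond the spread in lung (mean log2 ratio -1.61 ± 0.98 SD with vehicle and -1.96 ± 0.54 SD with β-NMN, n = 3 each; exact permutation p = 0.7, adjusted 0.7). Without vehicle replicate 2 the log2 fold changes were -0.50 for Ebi3, -0.30 for Il27 and 0.75 for Il12a, and the difference in mean log2 ratio turned from -0.35 to 0.15.

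Il10 rested on 15, 4 and 5 reads in vehicle lungs and 5, 14 and 12 reads in β-NMN lungs (log2 fold change 0.08 ± 0.58, adjusted p = 0.99, edgeR; 0.26 without vehicle replicate 2). Il10ra was at 13.0, 25.9 and 16 CPM with vehicle and at 13.5, 14.9 and 13.3 CPM with β-NMN, and Il10rb at 40.8, 92.5 and 39.6 CPM and at 58.7, 39.0 and 44.3 CPM. For both chains vehicle replicate 2 was the highest lung, and the log2 fold changes were -0.39 ± 0.31 and -0.28 ± 0.39 (adjusted p = 0.97 for each, edgeR). Without that mouse they were -0.06 and 0.23.

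**Figure D4:**
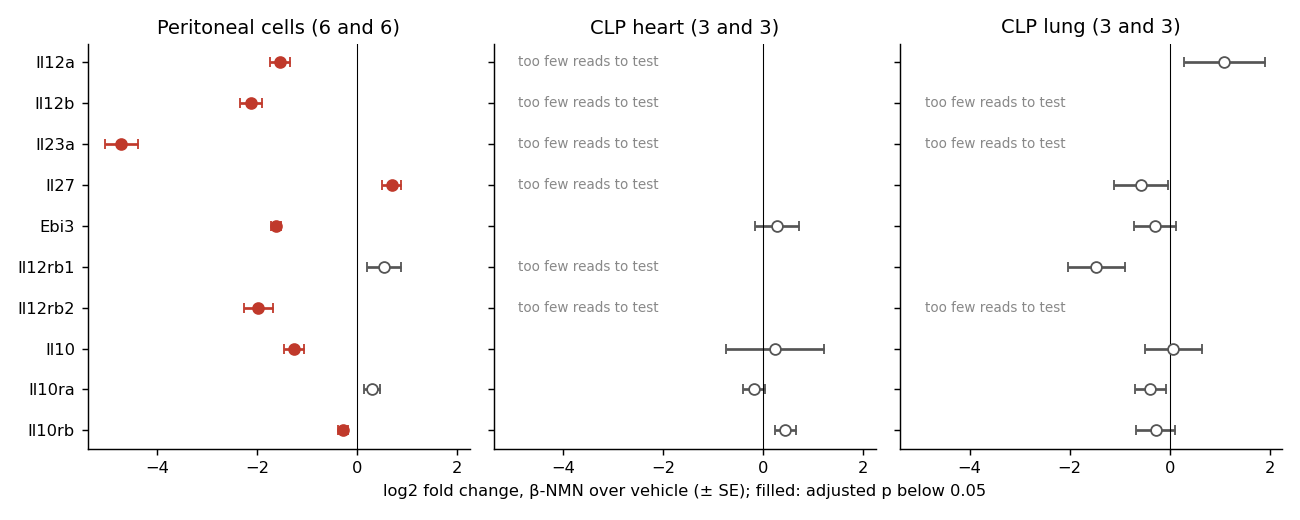
Log2 fold change of β-NMN over vehicle ± SE for the 10 genes in each tissue, from edgeR (6 and 6 peritoneal libraries, 3 and 3 hearts, 3 and 3 lungs; filled red circles have an adjusted p below 0.05). In peritoneal cells 8 genes are called, from -4.71 for Il23a to 0.69 for Il27, and in the organs the genes with enough reads are not called. Dosing and sampling times differed between the peritoneal and the CLP experiment.

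Of the 7 lists in the organs, the genes induced by IL-10 leaned furthest from all genes. In hearts all 8 were below 0, with a median log2 fold change of -1.27 against -0.01 for all genes, and in lungs all 8 were below 0, with a median of -0.56 against 0.00; none was called in either organ. Without vehicle replicate 2 the medians were -0.70, with 7 of 8 below 0, in hearts and -0.51, with 8 of 8 below 0, in lungs. Il10 itself had log2 fold changes of 0.24 in hearts and 0.08 in lungs, on 2 to 20 and 4 to 15 reads per library, and was not called. The list is not a measure of IL-10 signalling, and the cause of its lean was not tested. Socs3, the STAT3-induced inhibitor, ranged from 82.3 to 244 CPM in vehicle hearts and from 25.5 to 30.3 CPM in β-NMN hearts (log2 fold change -2.32 ± 0.41, adjusted p = 0.44, edgeR); without vehicle replicate 2 it was -1.70 with an adjusted p of 0.017. Il1rn, the IL-1 receptor antagonist, ranged from 5.03 to 7.83 CPM and from 1.33 to 2.38 CPM in hearts (log2 fold change -1.75 ± 0.30, adjusted p = 0.44, edgeR). Without vehicle replicate 2 Il1rn was at -1.64. Nfil3, a repressor of Il12b, ranged from 29.5 to 44.5 CPM and from 19.7 to 20.6 CPM in lungs (log2 fold change -0.91 ± 0.23, adjusted p = 0.97, edgeR). Leaving out vehicle replicate 2 gave -0.77.

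For the other lists, the gene with the smallest p in each organ was as follows, and none was called in the fit of all 3 mice per group. In hearts, Cebpb had a log2 fold change of -0.46 ± 0.12 (-0.36 without vehicle replicate 2). Cxcl10, an interferon-γ-induced chemokine, stood at -1.57 ± 0.49 (-1.59) and Il17ra at -1.62 ± 0.51 (-0.76). Il20rb stood at -0.64 ± 0.42 (-0.03 without that mouse) and Il6st at -0.16 ± 0.16 (-0.02). In lungs, Socs1, an inhibitor of JAK signalling, stood at -1.17 ± 0.38 (-0.97 without vehicle replicate 2) and Il17ra at -0.72 ± 0.32 (-0.34). Il18 stood at 0.57 ± 0.38 (0.27), Il27ra at 0.86 ± 0.90 (0.36) and Il22ra2, the soluble IL-22 receptor, at 0.98 ± 0.93 (0.48). Adjusted p were 0.44 to 0.64 in hearts and 0.97 in lungs (edgeR). Neutrophil markers moved the same way in hearts: all 5 tested were below 0, none was called, and the sum of the list ranged from 21.5 to 36.5 CPM with vehicle and from 13.3 to 16 CPM with β-NMN; in lungs it ranged from 1398 to 2538 CPM and from 1436 to 2377 CPM.

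The organs were also compared with each other over the 12 CLP libraries, where 65.2% of the 17772 genes tested were called, 35.9% higher in lung. Of the 10 genes, 7 were tested and 5 were called, all higher in lung; Il12a, Il27 and Il12rb1 passed the filter through their lung levels, so their call follows in part from it. Il27 ranged from 0.0310 to 0.233 CPM in hearts, on only 2 to 8 reads per heart, and from 0.348 to 1.30 CPM in lungs (log2 difference 2.36 ± 0.42, adjusted p = 0.00028, edgeR). Il12rb1 ranged from 0 to 0.149 CPM and from 0.293 to 1.73 CPM (2.41 ± 0.58, adjusted p = 0.0027, edgeR). These CPM were scaled within each organ, whereas the log2 differences come from a normalization over both organs that sets the lungs lower relative to the hearts. Leaving out vehicle replicate 2 gave 2.18 and 2.29.

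Il10ra, the chain that gives leukocytes their response to IL-10, ranged from 3.30 to 5.29 CPM in hearts and from 13.0 to 25.9 CPM in lungs (log2 difference 1.15 ± 0.18, adjusted p = 0.00012, edgeR; 0.92 without vehicle replicate 2), and on the scale of each organ alone the lung value was the higher one in all 6 mice. Il12a was higher by 1.79 ± 0.54 (adjusted p = 0.011) and Ebi3 by 0.79 ± 0.33 (adjusted p = 0.047) on the log2 scale, the latter called in 3 of 10 alternatives. Leaving that mouse out gave 1.91 and 0.62, and Ebi3 was no longer called. Il10rb, by contrast, ranged from 26.3 to 51.8 CPM in hearts and from 39.0 to 92.5 CPM in lungs, and its log2 difference of -0.36 ± 0.23 was not called (adjusted p = 0.19, edgeR); the sign follows the normalization over both organs, and the lung value was the higher one in 4 of 6 mice on the scale of each organ alone. Without vehicle replicate 2 it was -0.80 with an adjusted p of 6.2e-05. Il10 did not differ beyond its spread (0.47 ± 0.58, adjusted p = 0.49, edgeR). With the mouse as a block, the same 5 genes were called.

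Per length, Il10rb led in both organs (median 9.37 CPM per kb in vehicle hearts and 10.7 in vehicle lungs), followed by Il10ra (1.45 and 4.57), Ebi3 (0.732 and 2.28) and Il27 (0.129 and 0.760). In vehicle hearts each of the first 3 stood apart from the next, and in vehicle lungs Il10ra and Ebi3 overlapped. Below Il27 the genes of vehicle mice overlapped with their neighbours in both organs, except Il10, which was below Il27 without overlap in lungs. Il27 thus led the order in stimulated peritoneal cells and stood below the IL-10 receptor chains and Ebi3 in the organs; the tables were normalized separately, and no test was made across them.

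The effect of β-NMN was compared between organs with an interaction term. None of the 18318 genes tested was called by edgeR, 797 had an unadjusted p below 0.05, and DESeq2 called 14. Among the 10 genes, 8 were tested, with log2 differences of the effect in lung minus heart from -1.46 for Il12rb1 to 1.14 for Il27 (adjusted p of 0.96 or more, edgeR). The largest positive difference, that of Il27, set 23, 9 and 16 reads in vehicle lungs and 14, 9 and 16 in β-NMN lungs against 6, 7 and 8 reads in vehicle hearts and 2 in each β-NMN heart. With vehicle replicate 2 left out the differences were -1.76 for Il12rb1 and 1.45 for Il27, neither called.

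**Figure D5:**
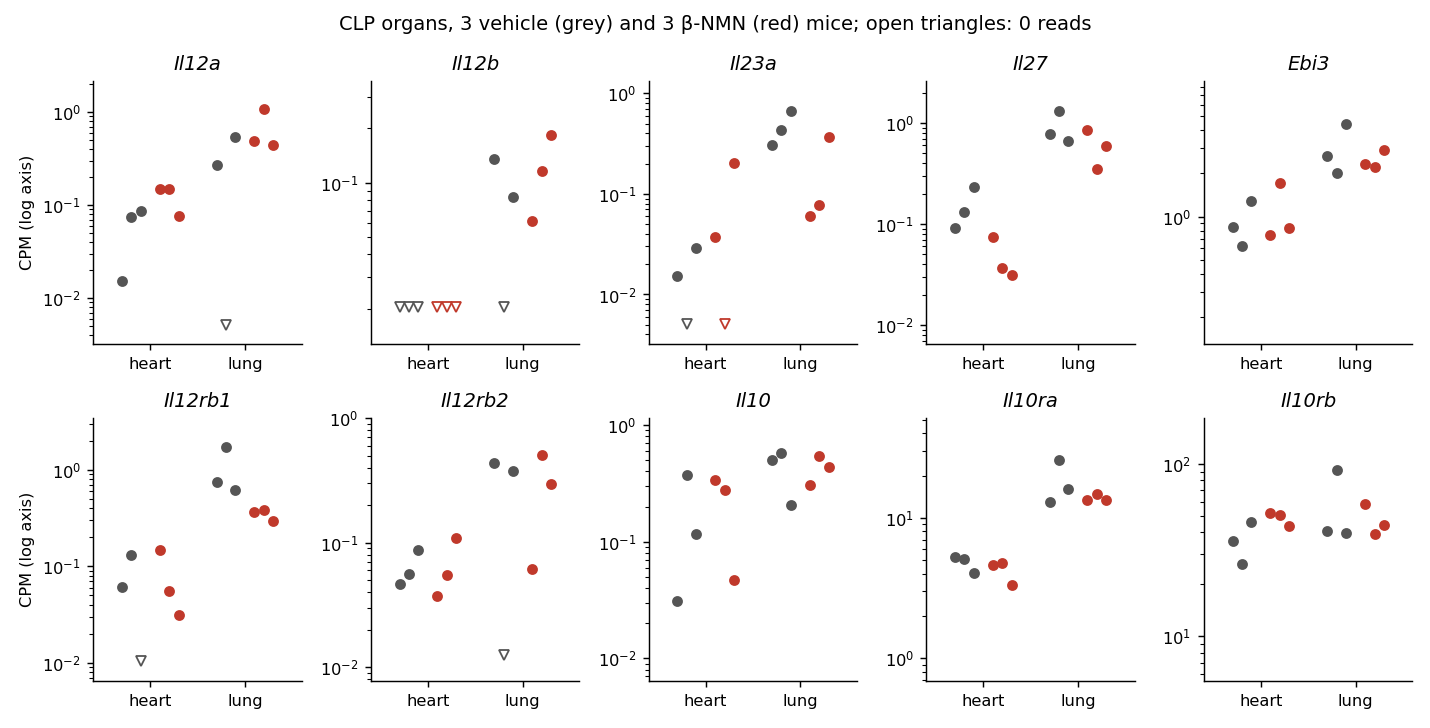
CPM of the 10 genes in each heart and lung (log axes, 1 point per library, vehicle grey, β-NMN red, open triangles at the foot of a panel for libraries with 0 reads). The CPM of each organ are scaled within that organ alone, so the position of lungs against hearts is not on one scale. Il12b has 0 reads in all 6 hearts, and the treatment groups overlap for Ebi3, Il10, Il10ra and Il10rb in both organs. They do not overlap for Il27 in hearts, on 2 to 8 reads per heart, or Il12rb1 in lungs, on 6 to 22 reads per lung. Both are lower with β-NMN there. Among all genes tested, 23.1% did not overlap in hearts and 8.21% in lungs.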

How the data were processed

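RNA of 24 libraries was analysed: peritoneal cells of 6 vehicle-treated and 6 β-NMN-treated TGC mice, and hearts and lungs of 3 and 3 CLP mice. The authors deposited raw read counts per gene symbol, without normalization, in 1 table for each experiment. Per the methods and the submitters' processing notes, poly(A) RNA was sequenced on a NovaSeq, reads were mapped to mm10 with STAR (2.7.3a in the notes) and counted with featureCounts 2.0.0. Reads are called single-end in one place and paired-end in another, and the annotation and strand setting are not given in the sources used here. The organ source labels name thioglycollate peritonitis, whereas titles and tissues give CLP.

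From these counts, CPM were scaled by TMM library sizes. Tissues were fitted separately in edgeR 4.0.16 (R 4.3.3): filterByExpr, TMM, estimateDisp and the older form of the quasi-likelihood F-test, with Benjamini-Hochberg adjustment over all genes tested and calls at 0.05. The SE is the absolute log2 fold change divided by the square root of F. Both organs entered 1 fit for the comparison between organs and for the interaction. Single genes and ratios of log2 CPM (prior count 2) were compared with exact two-sided permutation tests (scipy 1.17.1); each mouse is 1 replicate. Exon lengths and positions came from GENCODE M21, which matched 54106 symbols, 106 of them ambiguously. Promoters came from a supplied set of RefSeq starts, which held only 4 of the 10 genes. The biological coefficient of variation was 0.233 in peritoneal cells, 0.293 in hearts and 0.437 in lungs.

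The 10 genes, the other lists and the tests were chosen with earlier results of these data known. Besides the 10 genes, each list is represented by its 3 genes with the smallest p in peritoneal cells and 1 in each organ, and Il12b and Il10 by the 5 genes with the highest Pearson r. The transcription factors called higher are named as well. Alternatives were DESeq2 size factors, DESeq2 1.42.0, no low-count filter, the newer and the robust form of the quasi-likelihood test, limma-voom (limma 3.58.1) with quality weights, a replicate or mouse block, both organs in 1 fit, a prior count of 0.5 for ratios, and each library left out in turn. Heart and lung of a mouse are paired by the animal in the labels; their deviations from the group means correlated with r of 0.04 to 0.15 over 6 mice. The fits were checked on simulated counts.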

Additional observations from a re-analysis of the deposited data

Results flagged for a closer look

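In 20 sets of 6 peritoneal libraries (10 genes in each of the groups), 2 held a library far from the other 5 of its group, where chance flags about 1 in 20 sets. Il10 was at 93.7 CPM in β-NMN replicate 5, whereas the other β-NMN libraries lay between 63.6 and 67.0 CPM; all vehicle libraries were higher. Il10rb was at 144 CPM in β-NMN replicate 6, whereas the other β-NMN libraries lay between 108 and 117 CPM, and this library places the group within the vehicle range of 118 to 164 CPM. Without it, Il10rb had a log2 fold change of -0.33 and an adjusted p of 0.0077 (edgeR quasi-likelihood).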

How the results depend on the processing

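Over 494 alternative values of the 10 genes, 455 kept direction and side of the threshold, 17 lost a call, 3 gained one and 19 changed sign; in peritoneal cells no value changed sign. The Il10rb call there was lost in 10 of 19 alternatives, among them the replicate block (adjusted p = 0.076, edgeR), under which Il10ra was called (0.046), and Ebi3 in the comparison of organs lost its call in 7 of 10. Vehicle and β-NMN libraries of one number come from different mice. The r of same-numbered deviations was -0.17 to 0.13 in peritoneal libraries and -0.52 to 0.30 in lungs. In hearts it was 0.07 to 0.24, and each heart correlated best with its own number. Whether same-numbered hearts share more than the number was not tested. With the block or the mouse block, no other call of the 10 genes changed. Peritoneal calls over all genes stayed within 1.5 times of 7733 in every alternative.

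In hearts, 0 genes were called, but 3 without the low-count filter, 283 with DESeq2, 3 with limma-voom, and 0 to 5 with 1 library left out, the 5 without vehicle replicate 2. In lungs DESeq2 called 9 and limma-voom 7; for the interaction the fit without the filter called 2 and DESeq2 14. The cause was not tested.

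Changes of sign touched values near 0 or on few reads. With limma-voom Il10rb in lung was 0.14 on the log2 scale, and the interaction of Il12a (-0.01) was 0.00 without the filter (0.0040) and 0.086 with the mouse block. With 1 library left out, log2 fold changes ranged in heart from -0.20 to 0.59 for Ebi3 and from -0.30 to 1.62 for Il10, in lung from -0.50 to 0.093 for Ebi3, from -0.29 to 0.30 for Il10 and from -0.46 to 0.23 for Il10rb, and for the interaction from -0.69 to 0.44 for Il12a, from -1.06 to 0.29 for Il12rb2, from -1.38 to 0.59 for Il10 and from -0.43 to 0.074 for Il10ra. The difference in log2 ratio ranged from 0.68 to 1.13 for Il10 to Il12b in peritoneal cells, the latter without vehicle replicate 3, and from -0.83 to 0.15 for Il27 to Ebi3 in lung. With 0 to 28 reads of Il12a, Il12b, Il23a and Il12rb2 in each heart or lung, depth limits the organ results.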
